A study of Mus musculus with 34 samples.

Results

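A set of 10 genes of the primitive streak and the mesoderm it gives rise to were followed in J1 mESCs grown without LIF, with and without Royalactin. They are the transcription factor genes T, Eomes, Tbx6, Mixl1, Gsc, Evx1 and Mesp1, the ligand gene Fgf8, the inhibitor gene Cer1 and the receptor gene Kdr. The members were taken by symbol, and all 10 were found among the 23366 gene rows of the deposited RNA-seq table. J1 is a mouse embryonic stem cell line, LIF is the cytokine that keeps such cells undifferentiated in serum, and Royalactin is the major protein of honey bee royal jelly. Both groups were grown in serum medium without LIF on gelatin. In serum/-LIF nothing was added (2 libraries), and in serum/-LIF + Royalactin the purified protein was added at 0.5 mg/ml (2 libraries). The labels give passage 40 for all 4 libraries, where the study's text gives an earlier passage, and the series' design text describes the replicates as biological ones, without naming separate cultures, so p-values measure the spread between these libraries only. Cells kept in LIF were not analysed here, so the comparison asks how far lineage genes differ with Royalactin after LIF withdrawal, and has no undifferentiated reference.

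The primitive streak is the site where epiblast cells leave the epithelium at gastrulation and become mesoderm and definitive endoderm. Nodal, Wnt and BMP ligands induce it, FGF signals let cells migrate out of it, and secreted proteins such as Cer1 and the Lefty factors limit Nodal. T-box factors such as Brachyury and Eomes and homeodomain factors such as Mixl1 and Gsc then set the fates of the cells. In mESC culture these genes are commonly read as signs of early mesendoderm differentiation.

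In these cells the streak genes were weakly expressed and the members did not all lie on one side of the comparison. Fgf8 had the lower normalized counts with Royalactin and Kdr and Gsc the higher ones, in each case without overlap between the groups. Of all tested genes, 19.7% lay higher and 18.9% lower in both Royalactin libraries without overlap. Of the 5 tested members 1 lay higher (Kdr) and 1 lower (Fgf8), and Gsc was not tested. T, Eomes and Mixl1 overlapped between groups. Mesp1 and Evx1 had reads in a single Royalactin library each, and Tbx6 and Cer1 had 0 reads in all 4 libraries. The test was made where the mean over the 4 libraries reached 10 normalized counts, which held for 5 of the 10 members, Kdr only through its Royalactin values. None of the 5 passed an adjusted p of 0.05 in limma (Benjamini-Hochberg), against 64 of 12993 genes (0.493%) in the whole table, with 0.331% higher and 0.162% lower with Royalactin. The study selected genes by a p of 0.05 and a 2-fold difference in DESeq, a different test. On the unadjusted limma p these limits selected 1 of the 5 members (Fgf8), against 7.13% of tested genes, 3.52% higher and 3.61% lower. That number was 3 when all genes with a value above 0 were tested, with Gsc and Kdr added (6.63% of all those genes), and 0 without either Royalactin library. Without serum/-LIF replicate 1 it was 1, and the member was then Kdr. Depth bounds what can be said. The libraries held 14737796 to 17597818 reads on genes, of which 9.08% to 46.6% fell on Rn45s, the precursor of ribosomal RNA. One read was worth 0.688 to 1.34 normalized counts.

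**Figure D1:**
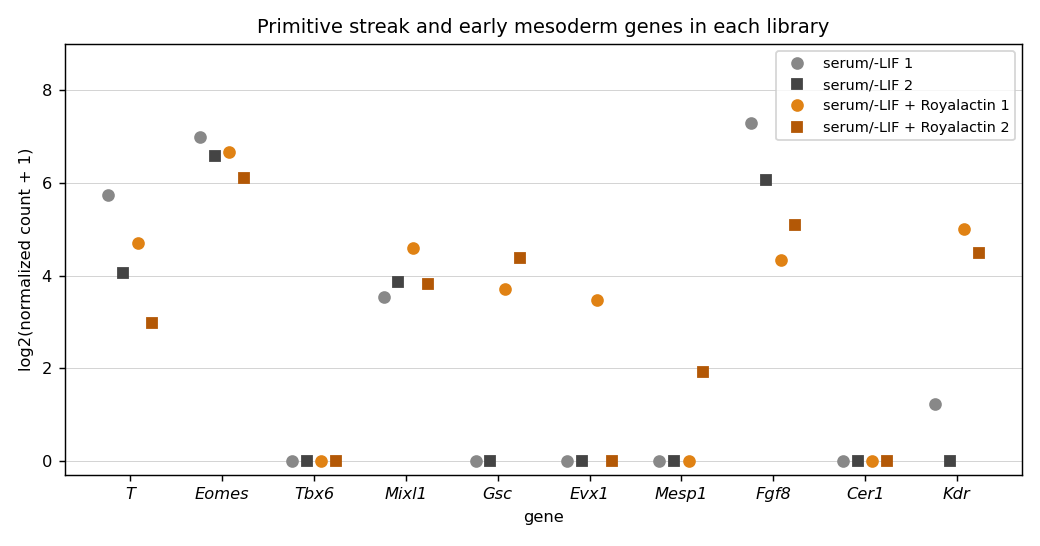
Each point is 1 library, with log2(normalized count + 1) on the vertical axis and the 10 genes on the horizontal axis; grey marks serum/-LIF and orange serum/-LIF + Royalactin. Fgf8 lies lower and Gsc and Kdr lie higher in both Royalactin libraries, and Tbx6 and Cer1 are at 0 throughout.

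Promoters of 8 of the 10 members, all but Fgf8 and Mixl1, were matched in RefSeq (GRCm38.p6), each 250 bases before to 50 bases after the start site. The motifs below were searched on both strands. They were the T-box half-site TCACACCT, the TCF/LEF site (CTTTGAA or its variants with A or T at either of the last 2 positions), the TATA box TATAAA and the GC box GGGCGG. The promoters shown are those of T, which has the TCF/LEF letters, of Mesp1, which has both TCF/LEF and T-box letters, and of Gsc and Kdr, the members with higher counts in both Royalactin libraries. Capitals mark the matches, and each sequence reads 5′ to 3′ along the gene.
T: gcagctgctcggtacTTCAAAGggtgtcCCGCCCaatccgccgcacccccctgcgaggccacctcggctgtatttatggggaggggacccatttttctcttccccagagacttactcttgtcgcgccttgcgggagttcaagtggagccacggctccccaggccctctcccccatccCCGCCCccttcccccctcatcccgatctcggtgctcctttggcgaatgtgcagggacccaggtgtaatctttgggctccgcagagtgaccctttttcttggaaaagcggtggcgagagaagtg
Mesp1: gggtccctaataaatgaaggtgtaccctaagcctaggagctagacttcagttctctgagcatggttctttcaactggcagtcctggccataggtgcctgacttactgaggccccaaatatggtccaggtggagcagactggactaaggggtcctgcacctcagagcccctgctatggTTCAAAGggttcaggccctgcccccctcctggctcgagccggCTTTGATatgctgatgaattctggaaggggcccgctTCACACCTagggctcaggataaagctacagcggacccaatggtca
Gsc: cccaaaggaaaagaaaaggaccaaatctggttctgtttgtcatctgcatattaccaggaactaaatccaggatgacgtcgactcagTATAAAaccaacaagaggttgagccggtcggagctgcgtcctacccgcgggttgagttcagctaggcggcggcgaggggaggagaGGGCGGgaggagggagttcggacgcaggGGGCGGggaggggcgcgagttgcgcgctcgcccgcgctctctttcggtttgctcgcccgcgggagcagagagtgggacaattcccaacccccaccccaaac
Kdr: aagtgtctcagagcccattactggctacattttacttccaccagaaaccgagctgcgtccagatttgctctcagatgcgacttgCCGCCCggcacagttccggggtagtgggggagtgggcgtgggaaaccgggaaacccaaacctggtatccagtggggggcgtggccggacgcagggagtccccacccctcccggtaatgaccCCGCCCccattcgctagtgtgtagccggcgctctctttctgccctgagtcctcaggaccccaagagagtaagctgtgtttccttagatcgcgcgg
The windows lie at chr17:8434173-8434472 on the plus strand for T, and on the minus strand at chr7:79793541-79793840 for Mesp1, chr12:104473187-104473486 for Gsc and chr5:75978406-75978705 for Kdr. The T-box half-site was present in 1 of the 8 member promoters (Mesp1), against 1.28% of 32851 promoters in the table. The TCF/LEF site was present in 2 of 8 (T and Mesp1), against 16.9% of all. In T its 7 letters begin 235 bases before the start site, and in Mesp1 there are 2 such sites, beginning 73 and 31 bases before it. The TATA box letters were in 2 of 8 (Gsc and Tbx6), against 13.6% of all promoters. The GC box was in 3 of 8 (T, Gsc and Kdr, with 2 each), against 35.7% of all. The Gsc and Kdr windows hold neither the TCF/LEF nor the T-box letters. These matches describe letters, not bound sites.

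T, a T-box gene, encodes Brachyury, the factor needed for posterior mesoderm and notochord. The gene lies at chr17:8627288-8635361 of mm9, plus strand, with 2312 bases of exon. Its normalized counts were 52.2 and 15.5 in serum/-LIF and 25.1 and 6.88 in serum/-LIF + Royalactin, from 39, 15, 25 and 10 reads. The ranges of the groups overlapped, and replicate 1 was the higher library in each group. The log2 difference was -1.05 (standard error 1.17, 95% interval -3.57 to 1.48, limma adjusted p = 0.837). It was -0.20 without serum/-LIF replicate 1 and -0.18 without serum/-LIF + Royalactin replicate 2. Rn45s shares were 46.6% and 38.4% in the replicate 1 libraries and 21.6% and 9.08% in the replicate 2 libraries, and their part in the level of T was not tested. In bulk RNA, fewer cells expressing a gene and less RNA per cell cannot be told apart, here and for the genes that follow.

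Eomes, a T-box factor of the early streak and definitive endoderm that trophoblast also uses, was the most evenly measured member. It lies at chr9:118387330-118395250 (mm9, plus strand). Its reads were 94 and 92 in serum/-LIF and 100 and 98 with Royalactin, which the size factors turned into normalized counts of 126 and 95.2 against 101 and 67.5. The groups overlapped, and the log2 difference was -0.41 (standard error 0.56, 95% interval -1.62 to 0.81, limma adjusted p = 0.874). The interval leaves room for differences of over 2-fold downward. Of the trophoblast markers, 9 of 10 were in the table and summed to 36.2 to 42.8 normalized counts in serum/-LIF and 56.3 to 72.3 with Royalactin, and Elf5, Tpbpa and Prl3d1 were at 0 in all libraries. Tbx6, which directs cells to paraxial rather than neural fate, had 0 reads in every library. A count of 0 allows up to 3 reads, or 2.07 to 4.01 normalized counts depending on the library, as far as counting error goes.

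Of the homeodomain factors, Mixl1, a paired-like factor switched on in the streak by Nodal and Wnt, was present in every library. It lies at chr1:182623174-182627165 (mm9, minus strand). Its normalized counts were 10.7 and 13.5 in serum/-LIF and 23.1 and 13.1 with Royalactin, from 8 to 23 reads. The second Royalactin library fell between the serum/-LIF libraries. The log2 difference was 0.50 (standard error 1.25, 95% interval -2.19 to 3.19, limma adjusted p = 0.934).

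Gsc, a repressor that marks the anterior streak and the organizer, was listed at 0 in both serum/-LIF libraries. It lies at chr12:105709419-105711537 (mm9, minus strand). In the Royalactin libraries it had 12 and 29 reads, or 12.1 and 19.96 normalized counts. With the serum/-LIF libraries set to a floor of 3 reads each, the Royalactin mean was at least 4.50-fold higher. With a mean over all libraries under 10, Gsc was outside the main test. When every gene with a value above 0 was tested, its unadjusted p was 0.0116 and its adjusted p 0.414 (limma, Benjamini-Hochberg). Of the 7961 genes with 0 reads in both serum/-LIF libraries, 83 (1.04%) had at least 10 reads in both Royalactin libraries, Gsc among them. In the opposite direction, 33 of the 7511 genes with 0 reads in both Royalactin libraries (0.439%) had at least 10 reads in both serum/-LIF libraries. Both totals include the 6680 genes with 0 reads in all 4 libraries, so the shares among genes with any read are higher. Without Rn45s, the Royalactin libraries held 10538334 and 15999458 reads on genes, against 7878527 and 11559820 in serum/-LIF. The part of depth in these counts was not tested.

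Evx1, a homeodomain factor of the posterior streak, had 10 reads (10.1 normalized counts) in serum/-LIF + Royalactin replicate 1 and 0 reads in the other three libraries. It lies at chr6:52263492-52268372 (mm9, plus strand), and its exons overlap 5730457N03Rik on the opposite strand. Whether the authors' counting used the strand is not given in the sources used here, so reads of the pair cannot be separated. Mesp1, the basic helix-loop-helix factor of nascent and cardiac mesoderm, had 4 reads (2.75 normalized counts) in serum/-LIF + Royalactin replicate 2 and none elsewhere. It lies at chr7:86937127-86938674 (mm9, minus strand). Neither gene was seen in both libraries of a group.

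Fgf8 encodes the FGF that cells need to move away from the streak. The gene lies at chr19:45811288-45817405 of mm9, minus strand, with 1350 bases of exon. Its normalized counts were 156 and 66.2 in serum/-LIF and 19.1 and 33.0 with Royalactin, from 117, 64, 19 and 48 reads. Both Royalactin libraries lay below both serum/-LIF libraries, a pattern shared by 18.9% of all tested genes. The means were 111 ± 63.8 and 26.1 ± 9.85 normalized counts (SD, n = 2), and the SD of serum/-LIF was more than the whole mean with Royalactin. The log2 difference was -1.98 (standard error 0.76, 95% interval -3.61 to -0.35), with an unadjusted p of 0.0211 and an adjusted p of 0.404 in limma. Neural tissue is another source of Fgf8. The 9 neural markers, of which Neurog2 was at 0 throughout, summed to 775 to 889 normalized counts in serum/-LIF and 995 to 1214 with Royalactin. Of the 5 tested none was called, with a median of 0.63 and a range from Fabp7 at -0.46 to Pax6 at 0.98. The neuronal tubulin gene Tubb3 alone gave 377 and 379 against 484 and 708. Olig2 had 362 and 232 against 243 and 264, and Pax3 had 5 and 5 reads against 0 and 0. The part of neural cells in the reads of Fgf8 was not tested.

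Cer1, the secreted antagonist of Nodal, BMP and Wnt made in anterior endoderm, had 0 reads in all 4 libraries. It lies at chr4:82527655-82531052 (mm9, minus strand). The other Nodal antagonists Lefty1 and Lefty2 were abundant, as described with the related genes.

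Kdr encodes a VEGF receptor that marks lateral and extraembryonic mesoderm and the endothelium and blood that form from it. The gene lies at chr5:76328852-76374483 of mm9, minus strand, with 7278 bases of exon, the longest of the members. Its reads were 1 and 0 in serum/-LIF and 31 and 31 with Royalactin, or 1.34 and 0 against 31.2 and 21.3 normalized counts. Both Royalactin libraries lay above both serum/-LIF libraries, as for 19.7% of tested genes. With 62 reads against 1 in the pooled libraries, the ratio was 43.4 after scaling (95% interval 7.51 to 1743, exact, covering counting error only). The log2 difference was 4.13 (standard error 1.96, 95% interval -0.09 to 8.35, with an unadjusted p of 0.0543 and an adjusted p of 0.547 in limma).

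**Figure D2:**
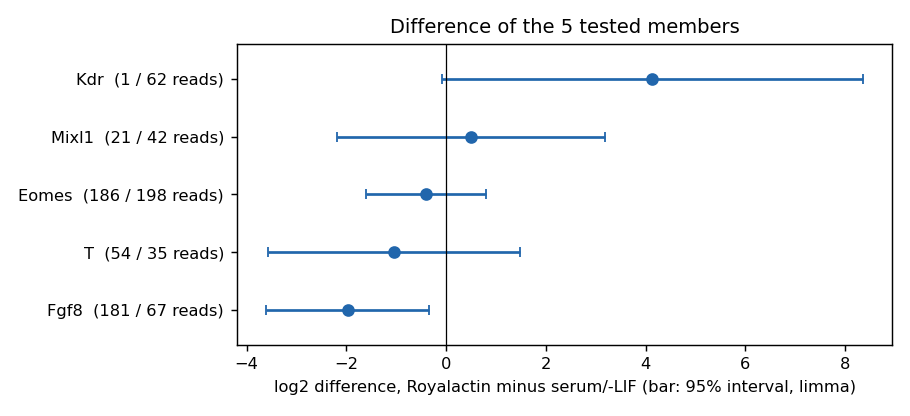
Points give the log2 difference of Royalactin minus serum/-LIF for the 5 tested members, bars give the 95% interval from limma, and the labels give reads summed over the serum/-LIF and the Royalactin libraries. The interval of Fgf8 ends at -0.35 and that of Kdr begins at -0.09, and those of Mixl1, Eomes and T span 0 widely.

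The 9 endothelial markers summed to 429 to 559 normalized counts in serum/-LIF and 1101 to 1114 with Royalactin. Of the 5 tested, 3 were higher in both Royalactin libraries without overlap, as were 19.7% of all tested genes. None of the 5 was lower in both, against 18.9% of all, and the median log2 difference was 1.44. These counts depend on the filter. Cldn5 was tested only through its Royalactin values, while Esam, higher in both, and Tie1, lower in both, fell below the filter. Pecam1, a cell adhesion gene that undifferentiated mESCs also express, had 221 and 138 against 638 and 584 normalized counts. Tek, the receptor for angiopoietins, had 103 and 62.1 against 205 and 235, and the claudin gene Cldn5 had 0 and 2.07 against 10.1 and 33.7. Esam, an endothelial junction gene, had 1 and 0 reads against 16 and 21. The junction cadherin gene Cdh5 had 22.7 and 0 normalized counts in serum/-LIF and 0 and 2.75 with Royalactin, Tie1 had 28.1 and 7.25 against 0 and 1.38, and Emcn was at 0 throughout. None of the 5 markers tested passed an adjusted p of 0.05, with 2 of 5 at an unadjusted p under 0.05 in limma. Over all 12993 tested genes, 1214 had an unadjusted p under 0.05 in limma. The part of endothelial cells in the reads of Kdr was not tested.

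Per kilobase of exon, the order of the members differed between the groups. In serum/-LIF, Fgf8 was first at 49.1 to 116 normalized counts per kilobase, followed by Eomes at 22.9 to 30.3, T at 6.72 to 22.6 and Mixl1 at 4.66 to 5.87. The ranges of neighbors in this order did not overlap, although Eomes and T nearly touched. With Royalactin, Eomes at 16.2 to 24.2 and Fgf8 at 14.2 to 24.5 could not be ordered. Gsc followed at 9.54 to 15.8, Mixl1 at 5.70 to 10.1, T at 2.98 to 10.9 and Kdr at 2.93 to 4.28, and every neighboring pair overlapped. Over the 4 libraries Nodal was at 438 to 541 and its coreceptor gene Tdgf1 at 4517 to 7560 per kilobase, above every member. The ligand gene Fgf4, at 150 to 436, also lay above every member. The ligand genes Wnt8a at 57.4 to 78.5, Wnt3 at 5.56 to 37.0 and Bmp4 at 2.41 to 20.7 lay within the range of the members.

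**Figure D3:**
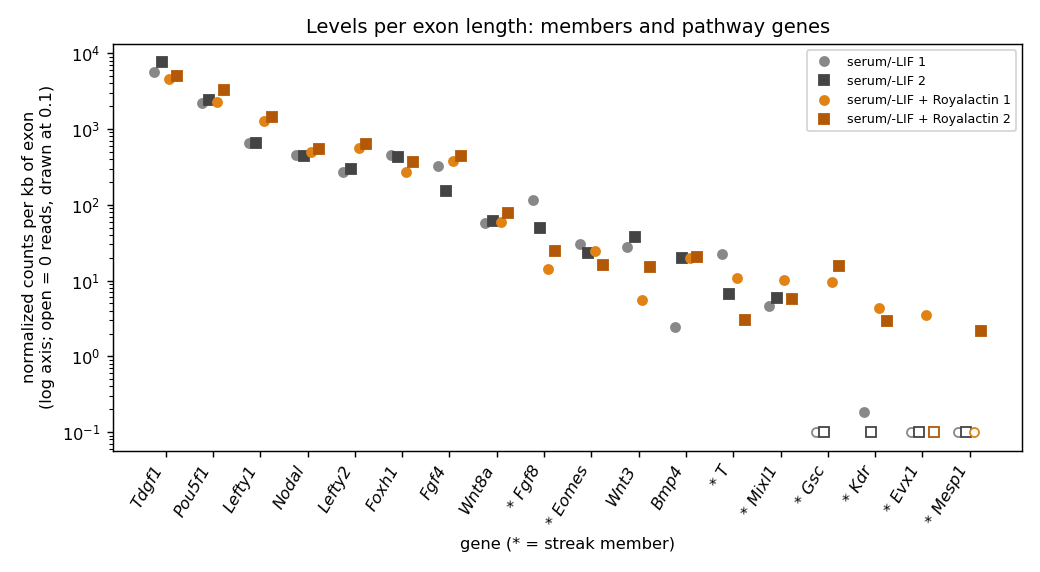
Normalized counts per kilobase of exon (log axis) in each library, for the 8 members with reads (starred) and for genes of the pathway, ordered by their mean; open symbols, drawn at 0.1, stand for 0 reads. The members lie at 0 to 116 per kilobase and Nodal, Lefty1, Lefty2, Foxh1 and Tdgf1 at 267 or more.

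The genes that induce the streak did not pass the test either. Of 17 inducing ligands and ligand-processing genes, 13 were tested and none passed an adjusted p of 0.05, with 2 at an unadjusted p under 0.05 (limma). Their median log2 difference was 0.22, against -0.01 over all 12993 genes, of which 1214 had an unadjusted p under 0.05 in limma. The counts of the lists that follow stand against the same 1214 of 12993 genes. Nodal had 952 and 917 normalized counts in serum/-LIF and 1045 and 1133 with Royalactin. Wnt3, the Wnt ligand needed for streak formation, had 84.3 and 114 against 17.1 and 46.1 (log2 difference -1.76, limma adjusted p = 0.476). Fgf4, which mESCs secrete, had 984 and 454 against 1160 and 1322 (0.89, adjusted p = 0.459). The extremes of the list were the Wnt ligand Wnt5b at 1.71 and the BMP ligand Bmp7 at -2.36, both from few reads.

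All 20 receptors and effectors were tested and none passed, with 1 at an unadjusted p under 0.05 in limma and a median of -0.10. Tcf7l1, a repressor of Wnt targets, had the highest log2 difference of that list (0.72), and its relative Tcf7l2 the lowest (-1.35). Foxh1, the partner of SMAD proteins in the Nodal response, had 594 and 552 against 354 and 479 normalized counts.

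Among 10 secreted inhibitors, 5 were tested and none passed, with a median of 0.70. In limma 2 of the 5 had an unadjusted p under 0.05, against 1214 of all 12993 genes. Those 2 were the Lefty genes, feedback inhibitors and targets of Nodal signaling. Lefty1 had 1161 and 1145 normalized counts in serum/-LIF and 2264 and 2559 with Royalactin, a log2 difference of 1.06 (standard error 0.29, limma adjusted p = 0.174). Lefty2 had 698 and 770 against 1451 and 1646, a log2 difference of 1.07 (standard error 0.30, adjusted p = 0.183). Fst, an activin antagonist, was the lowest of the list at -0.56. The Wnt inhibitor gene Dkk1 was at 0 in both serum/-LIF libraries and had 37 and 3 reads with Royalactin. Its level rested mostly on a single library.

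The other transcription factors of the streak and nascent mesoderm went both ways. Of 25 listed, 12 were tested and none passed, with a median of -0.76. In limma 4 of the 12 had an unadjusted p under 0.05, against 1214 of all 12993 genes. Cdx4, a caudal-type factor of posterior mesoderm, had 18 and 50 reads in serum/-LIF and 0 in both Royalactin libraries. Against a floor of 3 reads per library, Cdx4 was at least 14.9-fold lower with Royalactin (limma adjusted p = 0.413). It was tested only through its serum/-LIF values. Msx1, a BMP target, had 77.6 and 78.7 against 9.05 and 22.7 normalized counts (log2 difference -2.36, adjusted p = 0.389). Sp8, a zinc finger factor, had 207 and 123 against 40.2 and 57.1 (-1.72, adjusted p = 0.338). Tbx3, a T-box factor of mesoderm that also serves naive mESCs, had 24.1 and 107 against 295 and 121 (1.87, adjusted p = 0.404). Mesp2, the relative of Mesp1 in the segmentation of mesoderm, was the highest of the list at 3.30, with 2 and 0 reads against 44 and 10. Mesp2 was tested only through its Royalactin values.

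Later mesoderm genes included many with few reads or none. Of 18 paraxial mesoderm genes, 5 had 0 reads in all libraries (Msgn1, Hes7, Ripply2, Meox2 and Wnt3a) and 9 were tested, with none past the threshold, 1 at an unadjusted p under 0.05 and a median of 0.20. Tcf15, a basic helix-loop-helix factor of the somites, was the gene with that p and had 159 and 123 against 207 and 407 normalized counts (log2 difference 1.05, adjusted p = 0.510). Mesp2 was the highest of these too, and the forkhead gene Foxc1 the lowest at -3.15, with 36 and 7 reads against 0 and 6. Of 14 genes of the node, anterior streak and endoderm, 6 were tested, none passed and none had an unadjusted p under 0.05 (limma), with a median of 1.41. Their extremes were the chemokine receptor gene Cxcr4 at 2.15 and the ciliary regulator Foxj1 at -2.90. Cxcr4 had 18.7 and 0 against 22.1 and 15.8 normalized counts, so the groups overlapped. Sox7, of the same list, stood at 1.28 although its mean was 20.7 in serum/-LIF and 17.2 with Royalactin. Of 12 cardiac genes 5 were tested with none past either limit and a median of -0.39, from Myl7, an atrial myosin light chain, at -2.81 to the chromatin remodeler subunit Smarcd3 at 2.41.

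Around Kdr, 14 of 22 vascular and blood genes were tested and none passed, with a median of 0.42. In limma 3 of the 14 had an unadjusted p under 0.05, against 1214 of all 12993 genes. Pecam1 came closest, with a log2 difference of 1.80 (adjusted p = 0.0719). Cldn5 was the highest at 3.48, and the surface antigen gene Cd34 the lowest at -1.88. Of the 9 genes for VEGF ligands and their other receptors, 8 were tested, none passed and 2 had an unadjusted p under 0.05, with a median of -0.31. Vegfa, the main ligand of Kdr, had 275 and 240 normalized counts against 121 and 119 (log2 difference -1.09, limma adjusted p = 0.437). Flt1, a receptor that binds VEGF without strong signaling, had 115 and 144 against 68.4 and 19.3 (-1.79, adjusted p = 0.429). The ligand gene Vegfb was the highest of the list at 1.26. Kdr and Vegfa stood on opposite sides of 0.

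Genes of the epithelial to mesenchymal transition, through which cells leave the streak, were also mixed. Of 10 listed, 8 were tested and none passed, with a median of -0.38. In limma 3 of the 8 had an unadjusted p under 0.05, against 1214 of all 12993 genes. Fn1, the matrix protein fibronectin, had the lowest p of the list, with 2007 and 954 against 6072 and 3227 normalized counts (log2 difference 1.68, adjusted p = 0.105). Zeb1, a repressor of epithelial genes, had 62.9 and 7.25 against 180 and 184 normalized counts (95% interval of the log2 difference 1.15 to 4.84, adjusted p = 0.200). Twist1, a mesenchymal factor, had 104 and 189 against 64.4 and 32.4 (-1.60, adjusted p = 0.428). Snai1, the streak repressor of E-cadherin, had 2.67 and 10.4 in serum/-LIF and 0 in both Royalactin libraries, and Snai2 was at 0 in all.

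Among the related lists calls were made only for markers of undifferentiated mESCs. Over all tested genes 0.331% were called higher with Royalactin. Of the 8 mESC markers, 5 rose with Royalactin at an adjusted p under 0.05 in limma (Sox2, Esrrb, Zfp42, Klf4 and Tfcp2l1). With any 1 library left out none of them was called. Of the 110 tested genes on the other related lists none was called, although Fn1 and Pecam1 passed at a pseudocount of 5 and under a minimum mean of 50. Pou5f1, the gene for Oct4, had 4996 and 5407 against 5140 and 7453 normalized counts. Tdgf1 was the lowest of the 8 mESC markers and lay lower in both Royalactin libraries. It had 10914 and 14553 against 8696 and 9728 (log2 difference -0.45, limma adjusted p = 0.730). The 12 primitive endoderm markers summed to 1629 to 2401 normalized counts in serum/-LIF and 1443 to 1751 with Royalactin. Of these, 8 were tested and none was called, and none of the 12 was at 0 in all libraries. Log2 differences ranged from Ttr at -1.29 to Pdgfra at 2.38. Pdgfra had 52.2 and 0 against 42.2 and 32.4 normalized counts, so its difference rested on the 0 in 1 serum/-LIF library. The 10 fibroblast markers, 2 tested and none called, summed to 94.2 to 112 against 37.2 to 55.3, and 4 of them were at 0 in all libraries. Dcn, a matrix proteoglycan, had 28 and 30 reads against 0 and 0, and was tested only through its serum/-LIF values. Thy1, the other tested marker, had 41.5 and 33.1 against 45.3 and 29.6 normalized counts (log2 difference -0.02). The fibroblast sum was lower in both Royalactin libraries, as was Fgf8, and its part in the values of Fgf8 was not tested.

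**Figure D4:**
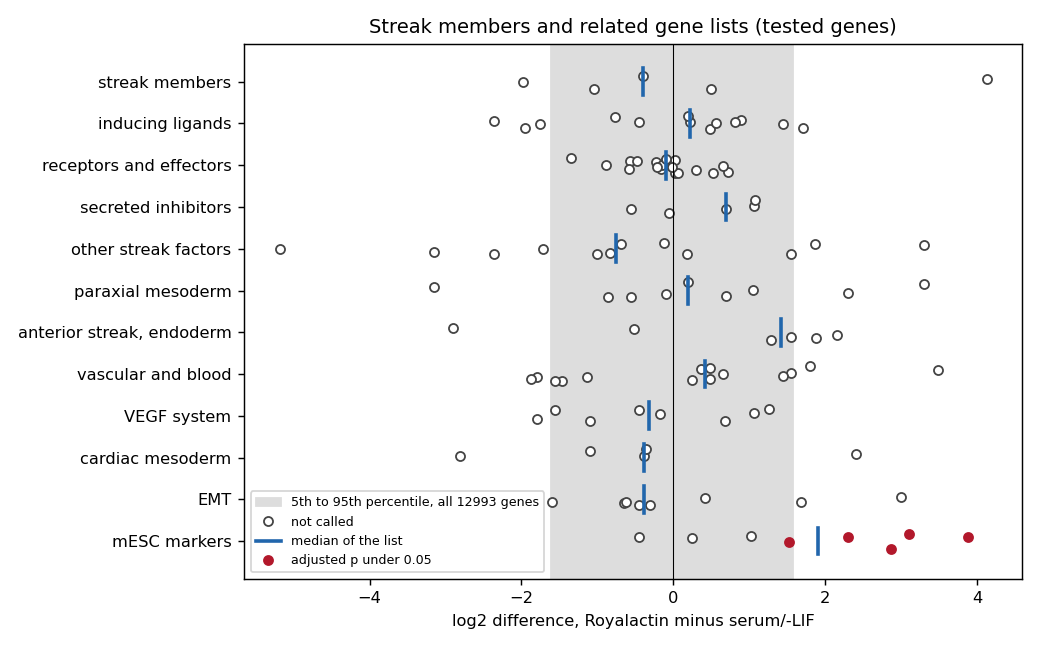
Each circle is a tested gene placed by its log2 difference (Royalactin minus serum/-LIF), by list; red marks an adjusted p under 0.05, the blue bar is the list's median and the grey band holds the 5th to 95th percentile of all genes. Red points occur only among the mESC markers, where there are 5.

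The genes whose pattern over the 4 libraries lay nearest to a member were found by Euclidean distance of the log2 deviations from each gene's mean, for the 3 members with the largest range. For Kdr (range 5.01 on the log2 scale) these were Pcdhga12, Treml2, Klf4, Clca4 and D730005E14Rik, at distances of 0.244 to 0.621. Klf4, a naive pluripotency factor, had 30.8 and 18.6 normalized counts in serum/-LIF and 485 and 277 with Royalactin. Pcdhga12 shares exons with its protocadherin cluster, and its count is uncertain. For Fgf8 (range 2.97) the nearest were Kcnq3, Susd4, Glipr1, Irs2 and Sepn1, at 0.0987 to 0.421. The potassium channel gene Kcnq3 had 89.6 and 34.2 against 10.1 and 17.9. For T (range 2.75) the nearest were Nfkbiz, C130074G19Rik, Cpne7, Fbrs and Sp5, at 0.250 to 0.378. Sp5, a Wnt target of the streak that was also on the list of streak factors, had 42.8 and 18.6 against 26.2 and 6.88. Over 4 libraries such likeness is a description.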

How the data were processed

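Of the series' 34 samples, the 4 RNA-seq libraries were used, and the other 30, from ATAC-seq, were not analysed here. Per the study's methods, the authors mapped reads to mm9 (TopHat, 2 mismatches allowed), summed them over genes (HTSeq-count) and scaled them by the size factors of DESeq. The gene annotation and strand setting are not given in the sources used here. The values deposited by the authors are these normalized counts, a signal proportional to reads. Reads were obtained by dividing by the smallest value above 0 of the library, of which 100% of values were whole multiples (within 0.01). The reads of serum/-LIF + Royalactin replicate 1 have a step too near 1 for an automatic check, so no count test was run. Values on the scale log2(normalized count + 1) were tested with limma 3.58.1 in R 4.3.3 (eBayes with a variance trend, two-sided, Benjamini-Hochberg) for genes with a mean of at least 10. This log scale understates changes of low genes, except that a 0 in 1 library can make a large difference between overlapping groups. Low genes could pass the filter through the values of a single group. The replicates' p-values rest on 2 libraries per group. The limma fit was tested on simulated counts. Its power for genes with few reads, at the spread of these libraries, was not assessed.

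Positions and exon lengths are from GENCODE M1, of the same build, and promoters from RefSeq. Sharing of reads with similar sequences elsewhere was not examined. Members and lists were chosen with earlier results of these data known. Named are all members, genes called in a list with its highest and lowest log2 difference, and the 5 genes nearest in pattern to each of 3 members. The trophoblast and endothelial marker lists are exceptions, as their extremes were not all named. Other genes of the lists (Nodal, Tdgf1, Wnt3, Fgf4, Foxh1, Lefty1, Dkk1, Msx1, Sp8, Tbx3, Vegfa, Snai1, Fn1, Tcf15, Tek, Tubb3, Olig2, Pax3, Sox7, Bmp4, Pecam1, Esam, Cdh5, Tie1, Wnt8a and Pou5f1) were named after their values were seen. Alternatives were pseudocounts of 0.1 and 5, testing all genes above 0 or a mean of 50, rescaling without Rn45s or by the upper quartile, limma lacking the trend, blocking by replicate number, and leaving out each library. Intervals of read ratios and floors of 3 reads cover counting error only.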

Additional observations from a re-analysis of the deposited data

How the results depend on the processing

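None of the 5 tested members passed an adjusted p of 0.05 in limma under any of the 12 alternatives, and none changed sign. The log2 difference of Fgf8 ranged from -2.59 to -1.36 (adjusted p 0.201 to 1.00), of Kdr from 2.46 to 6.09 (0.190 to 1.00), of T from -1.91 to -0.18, of Eomes from -0.69 to -0.12 and of Mixl1 from 0.11 to 0.89. T, Mixl1 and Kdr fell below the filter when the minimum mean was 50. The number of members at 2-fold and an unadjusted p of 0.05, 1 as reported, was 2 with a pseudocount of 5, after rescaling to the same total without Rn45s and without the trend (Kdr added in each), and 3 over all genes with a value above 0. Leaving out 1 library at a time gave 0 to 2. It was 0 without serum/-LIF + Royalactin replicate 1 and without replicate 2 of that group. The 64 calls in the whole table became 32 at a pseudocount of 0.1, 34 when no filter beyond a value above 0 was set, 99 under a minimum mean of 50 and 0 without the trend (1135 at an unadjusted p under 0.05). No gene was called with any 1 library left out, with 428 to 2496 genes at an unadjusted p under 0.05. Each such fit assumes that the lone library of its group varies like the other group. A replicate block gave 391 calls in the whole table, and 11 on the related lists against 5 as reported. The 6 added were Fn1, Lefty1, Lefty2, Nanog, Pecam1 and Zeb1. The labels give shared numbers but no shared origin, the deviations of same-numbered libraries from their group means had a correlation of 0.0851, and this block changed no call of a member. The related lists had 7 calls at a pseudocount of 5 and 7 under a minimum mean of 50 (Fn1 and Pecam1 added in both), 4 at a pseudocount of 0.1 and 4 when no filter beyond a value above 0 was set (Sox2 lost in both), 0 without the trend and 0 with each library left out. The upward share of the calls was 43 of 64 as reported, 35 of 46 after rescaling without Rn45s and 34 of 46 with upper-quartile scaling. Why the counts shift was not tested. At this depth 5 of the 10 members had a mean under 10 and were not tested.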
